A study of Drosophila melanogaster with 3 samples.

Results

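The 48 protein-coding genes described here are those whose symbols in the fly annotation begin with Prosalpha, Prosbeta, Rpn or Rpt, out of 13968 protein-coding genes on the chromosome arms. They encode the subunits of the proteasome, and 25 belong to its core particle and 23 to its regulatory particle. A symbol with T or R after the subunit number marks a paralogue, and 16 members carry one (11 core, 5 regulatory). The other 32 members (14 core, 18 regulatory) are the broadly expressed subunits. The rule uses symbols and no binding value, although the gene family itself was picked with earlier results of these data known. Chromatin immunoprecipitation with sequencing (ChIP-seq) mapped the protein CG12391, fused at its C terminus to GFP, in whole Drosophila melanogaster embryos of both sexes aged 0 to 24 h. The 3 samples are biological replicates of 1 group, from 1 transgenic line that expresses the fusion stably, and the GFP tag was the target of the antibody. There is no second genotype, stage or treatment. No source used here names the promoter that drives the fusion. Whole embryos mix all cell types, so binding in few cells and weak binding in many cannot be told apart.

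The proteasome is the protease that degrades proteins marked with ubiquitin. Its core particle is a barrel of stacked rings, with alpha subunits in the outer rings and beta subunits, some of which carry the proteolytic sites, in the inner ones. The regulatory particle caps the barrel. Its base holds a ring of ATPases, Rpt1 to Rpt6, which unfold the substrate, and the large scaffold subunits Rpn1 and Rpn2 with the ubiquitin receptors Rpn10 and Rpn13. Its lid holds Rpn3, Rpn5, Rpn6, Rpn7, Rpn8, Rpn9, Rpn11 and Rpn12, of which Rpn11 removes ubiquitin from substrates. The term lid genes here means these 8, without Sem1, a small lid subunit outside the naming rule. In flies several core and ATPase subunits have paralogues that are expressed mainly in the testis.

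Peaks came from 5 deposited lists: 1 per replicate, 1 pooled, and 1 filtered by the irreproducible discovery rate (IDR), a rank-based measure of agreement between replicates. The IDR-thresholded list held 8522 peaks. A gene counts as bound here if any of its transcription start sites (TSSs) has a peak summit 500 bp away or less, and its signal is the authors' value for the strongest such peak. The lists share reads, since pooled and IDR-thresholded peaks were made from the replicates. Signals rank peaks within a list and were not compared between lists. Replicate lists held 29978 to 30000 peaks on the arms, and shares in replicates were taken over the 8522 peaks of highest signal in each. Read depth is unknown, and the same control served all 3 replicates.

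In the IDR-thresholded list CG12391 was found at most broadly expressed proteasome genes and at none of the paralogues. There 25 of the 32 broadly expressed genes were bound (78.1%) and 0 of the 16 paralogues, against 34.4% of all protein-coding genes. Some paralogues had weak summits in the other lists, given below. Every lid gene was bound (8 of 8), as were 6 of 7 alpha genes, 7 of 10 base genes and 4 of 7 beta genes. Over all members 10 of 25 core genes (40%) and 15 of 23 regulatory particle genes (65.2%) were bound. Within the broadly expressed set these were 10 of 14 (71.4%) and 15 of 18 (83.3%).

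Each replicate also had more broadly expressed genes than paralogues among its peaks. Among the top peaks of replicates 1, 2 and 3 the broadly expressed genes were bound in 68.8%, 71.9% and 65.6% of cases, beside 35.2%, 32.7% and 35.2% of all protein-coding genes. No paralogue was bound in any of the 3 top lists. The difference between broadly expressed genes and paralogues was 68.8 ± 3.13 percentage points (SD, n = 3), and an exact two-sided sign-flip permutation test over replicates gave p = 0.25, the smallest p that 3 replicates allow. The share of core genes minus that of regulatory particle genes was -37.2, -24.9 and -32.9 percentage points in replicates 1, 2 and 3, a mean of -31.7 ± 6.26 (SD, n = 3), with the same exact permutation p of 0.25. Among broadly expressed genes alone the mean difference was -24.9 ± 10.2 percentage points (SD, n = 3, exact permutation p = 0.25). The core share was lower in 3 of 3 replicates, but no p-value in this design can pass 0.05. Without replicate 1, 2 or 3, when an IDR-thresholded peak had to overlap a top peak of both other replicates, the core count fell from 10 to 5, 6 and 5 of 25, and the regulatory count from 15 to 13, 14 and 13 of 23. These settings filter a list still made from all 3 replicates, so they are stricter cutoffs and do not remove a replicate. All protein-coding genes were then at 28.6%, 28.9% and 27.3%. The core share of 20%, 24% and 20%, taken over all 25 core genes, lay below them and the regulatory share above. None of the 11 core paralogues was bound in these settings. Over the 14 broadly expressed core genes alone, the same counts of 5, 6 and 5 are shares above those of all genes. The lid count was 8 each time. Over all members the difference between core and regulatory genes was -7.65 percentage points with a window of 100 bp, -17.9 with all peaks and -19.2 when each summit counted for its nearest TSS alone. These values include 11 core and 5 regulatory paralogues. Among broadly expressed genes the sign turned, to 1.06 ± 8.74 (SD, n = 3, exact permutation p = 1) with a window of 100 bp and to 0.26 ± 3.21 (SD, n = 3, exact permutation p = 1) with all peaks.

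**Figure D1:**
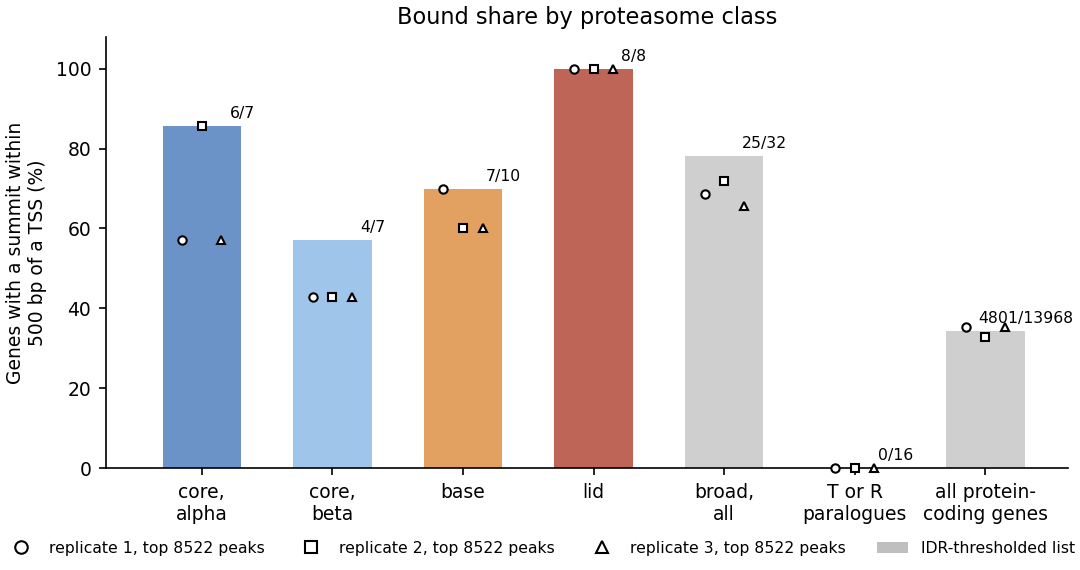
Bars show the percentage of genes in each class with a summit of the IDR-thresholded list within 500 bp of a TSS (bound and total number of genes above each bar), and open symbols show the same share in the top 8522 peaks of each replicate. The lid is at 100% in every list, the paralogues are at 0%, and all protein-coding genes lie at 34.4% in the IDR-thresholded list.

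The highest signals of the complex were at lid genes, although some base and core genes lay above the weaker lid genes. Rpn3 (FBgn0261396, 2L, 19051790 to 19053681, plus strand, dm6), a lid scaffold subunit, had a peak from 19051518 to 19051964 with a signal of 1574, which ranked 593 of 8522. Its signal was 274.3, 890.4 and 440.2 in replicates 1, 2 and 3, at ranks 650, 675 and 445. Rpn3 was thus the highest-ranked member in all 3 replicates, and its summit lay 1 bp upstream of the TSS. Rpn11 (FBgn0028694, 2L, 5058404 to 5059790, minus strand), the deubiquitinase, had a signal of 1111 with its summit 179 bp upstream. Its signal was 136.5, 798.4 and 179.9 in replicates 1, 2 and 3, at ranks 2321, 833 and 2190. Rpn5 (FBgn0028690, 3R, 5789493 to 5791569, plus strand), a lid scaffold subunit, had a signal of 1087 with its summit 210 bp upstream, and replicate signals of 100.2, 799.1 and 179.4 at ranks 3772, 828 and 2203. At both genes replicate 2 placed the peak higher than the other replicates did. Rpn2 (FBgn0028692, 3R, 29153524 to 29157255, plus strand), a base scaffold, had a signal of 617.9 with its summit 140 bp upstream. Its replicate signals were 157.9, 322.7 and 145.7, at ranks 1807, 3219 and 2950, so here replicate 1 placed the peak highest.

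Sequence immediately upstream of the TSS is shown for these 4 strongly bound genes, and for 2 broadly expressed genes with no IDR-thresholded summit, so that the bases under and beside the summits can be compared. Of the broadly expressed genes without an IDR-thresholded summit, Prosbeta4 had the highest pooled signal and Rpt6 had no pooled summit, and this pair was chosen after their values were seen. Each line reads 5′ to 3′ on the gene's strand and ends at the base before the TSS (RefSeq sequence of the Release 6 assembly, whose coordinates are those of dm6). It covers at most 250 bases and stops where another annotated exon begins. Capitals mark matches on either strand to the motifs searched that occur here, which are CGATA, the short site of the boundary protein BEAF-32, the TATA box TATAAA, and runs of 7 A, which overlap the TATA box at Rpn5.
Rpn3: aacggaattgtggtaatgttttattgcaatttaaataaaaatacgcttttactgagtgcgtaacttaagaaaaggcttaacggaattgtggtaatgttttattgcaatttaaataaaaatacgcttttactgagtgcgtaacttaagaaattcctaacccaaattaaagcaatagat
Rpn11: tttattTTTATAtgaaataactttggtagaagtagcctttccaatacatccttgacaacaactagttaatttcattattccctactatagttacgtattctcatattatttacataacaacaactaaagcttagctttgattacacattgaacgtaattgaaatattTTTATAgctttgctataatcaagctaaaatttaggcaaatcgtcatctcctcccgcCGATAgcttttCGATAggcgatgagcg
Rpn5: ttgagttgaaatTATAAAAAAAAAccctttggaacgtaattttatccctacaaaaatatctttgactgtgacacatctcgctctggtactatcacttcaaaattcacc
Rpn2: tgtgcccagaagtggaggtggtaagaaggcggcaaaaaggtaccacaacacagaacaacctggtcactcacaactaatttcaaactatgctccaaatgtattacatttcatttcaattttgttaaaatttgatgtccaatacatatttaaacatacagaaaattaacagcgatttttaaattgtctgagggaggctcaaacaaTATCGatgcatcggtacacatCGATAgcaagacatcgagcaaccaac
Prosbeta4: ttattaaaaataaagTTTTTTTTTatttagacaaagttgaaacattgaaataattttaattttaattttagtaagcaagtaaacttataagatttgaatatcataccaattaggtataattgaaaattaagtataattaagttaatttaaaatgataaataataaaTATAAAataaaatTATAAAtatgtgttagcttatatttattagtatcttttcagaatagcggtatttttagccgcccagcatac
Rpt6: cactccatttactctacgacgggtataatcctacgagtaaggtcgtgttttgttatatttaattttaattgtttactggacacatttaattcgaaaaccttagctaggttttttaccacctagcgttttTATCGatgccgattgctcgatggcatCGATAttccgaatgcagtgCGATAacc
Rpn3 lies at chr2L:19051613-19051789 on the plus strand, Rpn11 at chr2L:5059791-5060040 on the minus strand, Rpn5 at chr3R:5789385-5789492 on the plus strand and Rpn2 at chr3R:29153274-29153523 on the plus strand. Prosbeta4 lies at chr2L:16732134-16732383 on the minus strand and Rpt6 at chrX:21315870-21316051 on the plus strand.

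The printed stretches were 71.2% A+T for Rpn3, 68.4% for Rpn11, 67.6% for Rpn5 and 62.4% for Rpn2. Those of Prosbeta4 and Rpt6 were 82.0% and 61.5%, above and below all of these. Both lacked an IDR-thresholded summit but had weaker ones in other lists, so the 6 genes are no contrast of bound with unbound. CGATA occurred as a pair near the TSS of Rpn11 (from -27 and -16 bp) and of Rpn2 (from -47 and -26 bp), and 3 times at Rpt6 (from -53, -27 and -8 bp). The summits of Rpn11 and Rpn2 lay farther upstream than these pairs. The Rpn5 summit falls beyond the printed bases, 101 bp from the TSS of the neighbouring gene Hat1. Rpn3 held a tandem repeat: a stretch of 78 bp from -187 to -110 recurred without a mismatch from -109 to -32, and the printed bases begin within the first copy. Repeats of at least 50 bp were found in 18 of 13968 promoters (0.129%). The next longest exact repeat among the broadly expressed proteasome genes was 16 bp, at Prosbeta2. Reads within a repeat copy of Rpn3 cannot be placed uniquely, and whether this touches its signal was not tested.

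The other lid genes had signals of 926.9 (Rpn6, whose summit lay 136 bp upstream), 606.8 (Rpn7), 597.1 (Rpn8), 568.8 (Rpn9) and 510.3 (Rpn12). Rpn6 (FBgn0028689, 2R, 14750166 to 14752910, minus strand), a scaffold of the lid, had signals of 203.1, 419.5 and 278.1 in replicates 1, 2 and 3, at ranks 1136, 2288 and 1059. Lid genes held a median signal of 766.9, beside 561.5 over all 4801 bound protein-coding genes, and 7 of the 8 lay above that median. The lowest place of any of these 8 genes in a replicate was rank 8169, at Rpn7 in replicate 1. Replicates 2 and 3 ranked the same gene 2170 and 4824. The median rank of the 8 genes was 2493, 2229 and 2954 in replicates 1, 2 and 3.

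Of the 10 base genes 7 were bound. All 4 Rpn subunits of the base were bound: the ubiquitin receptors Rpn13 with a signal of 824.6 and Rpn10 with 512.6, and the scaffolds Rpn2 and Rpn1, the latter with 252.1. Rpn13 (FBgn0033886, 2R, 13958545 to 13960404, minus strand) had signals of 149.1, 449.3 and 202.1 in replicates 1, 2 and 3. These ranked 1996, 2063 and 1831, close to each other, and its summit lay 91 bp upstream. Of the 6 ATPase genes Rpt2 (563.1), Rpt5 (339.4) and Rpt3 (274.8) were bound and Rpt1, Rpt4 and Rpt6 were not. Rpt2 and Rpt5 summits lay within 100 bp of the TSS, and that of Rpt3 160 bp upstream. The 4 base Rpn genes were bound in 100%, 75% and 100% of cases in the top peaks of replicates 1, 2 and 3, and the 6 ATPase genes in 50%, 50% and 33.3%, beside 35.2%, 32.7% and 35.2% of all genes. Signals of both kinds overlapped, with Rpt2 above Rpn10, and Rpt5 and Rpt3 above Rpn1. The share of bound lid genes minus that of base genes was 30, 40 and 40 percentage points in replicates 1, 2 and 3, a mean of 36.7 ± 5.77 (SD, n = 3, exact two-sided sign-flip permutation p = 0.25). This order turned in the IDR-thresholded list under 3 alternatives. With a window of 100 bp 2 of 8 lid and 5 of 10 base genes were bound, and both the nearest TSS rule and peaks that cover a TSS gave 4 of 8 and 6 of 10.

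Core genes sat lower in the lists. The strongest alpha gene, Prosalpha4, had a signal of 593.5, followed by Prosalpha6 (490.1), Prosalpha7 (465.6), Prosalpha5 (427.8), Prosalpha3 (335.9) and Prosalpha2 (228.9). The strongest beta gene was Prosbeta1, the subunit with caspase-like activity, at 540.1. Prosbeta3 (261.9), the trypsin-like Prosbeta2 (255.5) and the chymotrypsin-like Prosbeta5 (228.8) followed. The median signal of the 10 bound core genes was 381.8 and that of the 15 bound regulatory genes 597.1. Prosalpha4 was the 1 core gene above the median of all bound genes, compared with 10 regulatory genes. The share of bound alpha genes exceeded that of beta genes by 14.3, 42.9 and 14.3 percentage points in the top peaks of replicates 1, 2 and 3 (mean 23.8 ± 16.5, SD, n = 3, exact two-sided sign-flip permutation p = 0.25). The order was the opposite in the pooled list and in all 3 full replicate lists, where 7 of 7 beta and 6 of 7 alpha genes had a summit, and with a window of 100 bp, where 3 beta and 2 alpha genes were bound.

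**Figure D2:**
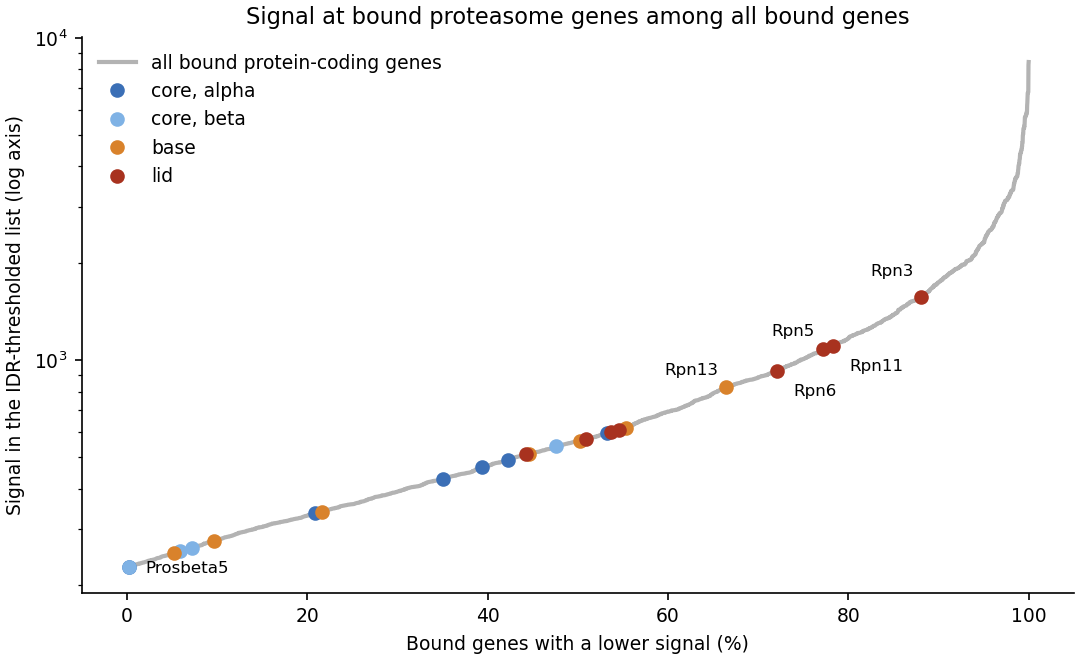
The signal of each bound proteasome gene (points, coloured by class) is drawn on the curve of all 4801 bound protein-coding genes sorted by signal, with a log axis for signal. Rpn3, Rpn11, Rpn5 and Rpn6 of the lid are the highest points, and Prosbeta5 stands at the foot of the curve.

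Several core genes lay beside the edge of the IDR-thresholded list, whose lowest signal was 227.2. The 25 bound members had the same signal and rank in this list and in the pooled one. Just inside it were Prosbeta5 (228.8) and Prosalpha2 (228.9), and just outside it, in the pooled list, Prosbeta4 (220.5), Prosbeta7 (219.7) and Prosbeta6 (191.6) with the ATPase gene Rpt4 (179.9). In the whole pooled list 29 of the 32 broadly expressed genes had a summit within 500 bp (90.6%), beside 52.1% of all genes, and all 7 beta genes were among them. In the full replicate lists 29, 30 and 30 of the 32 genes had a summit, beside 53.8%, 51.4% and 55.0% of all genes.

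The 7 broadly expressed genes without an IDR-thresholded summit were of 3 kinds. Prosbeta4, Prosbeta6, Prosbeta7 and Rpt4 had a weaker summit in the pooled list and in each replicate. Prosbeta4 had signals of 52.4, 121.5 and 52.7 in replicates 1, 2 and 3, at ranks 8711, 9050 and 9646. Prosbeta6 had 52.3, 76.5 and 59.1, at ranks 8718, 13265 and 8557. Prosbeta7 had 60.01, 101.04 and 75.9, at ranks 7435, 10625 and 6619. All 3 encode subunits of the inner rings, and Prosbeta7 alone of them was within the top 8522 peaks of any replicate. Rpt4, an ATPase, had 62.8, 67.99 and 43.04, at ranks 7030, 14567 and 11593. Replicate 2 gave the lowest place to Prosbeta6, Prosbeta7 and Rpt4. Rpt6 had summits in replicates 2 and 3 alone, with signals of 117.8 and 37.2 at ranks 9309 and 13338. Prosalpha1 and Rpt1 had none within 500 bp in any of the 5 lists. Their nearest summits lay 3317 to 3345 bp and 11606 to 11615 bp from the TSS. Both genes lie on 2R (7827303 to 7828678 and 7652440 to 7653954). Of the other genes that start within 250 kb, 31 of 83 were bound around Prosalpha1 and 30 of 83 around Rpt1 (37.3% and 36.1%). These shares lie near that of the whole genome. Around the 25 bound genes the share ranged from 26.9% to 56.0% with a median of 41.5%.

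**Figure D3:**
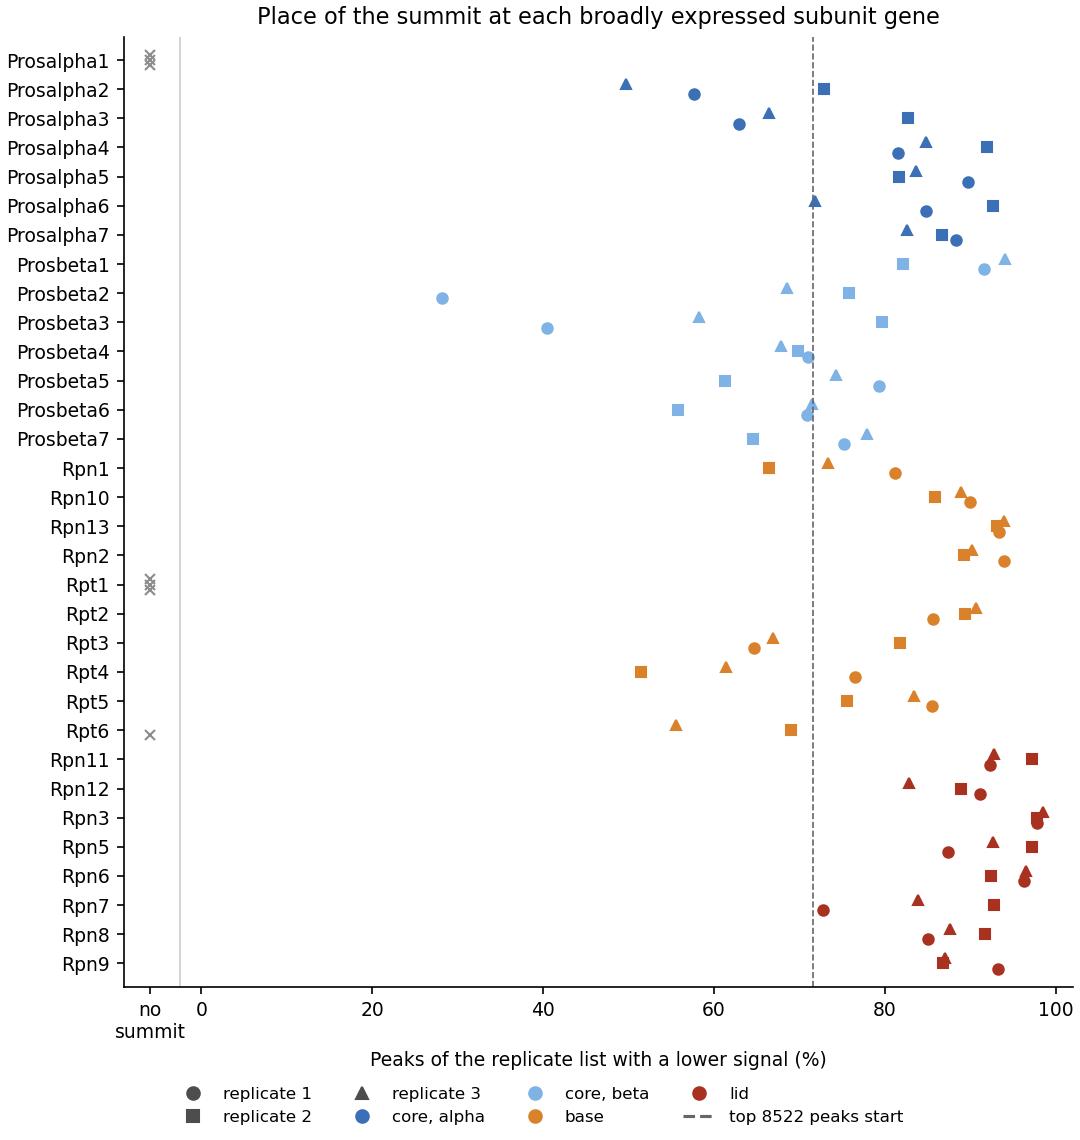
Each row is 1 broadly expressed gene and each symbol the place of its strongest summit within 500 bp of a TSS in 1 replicate list, as the percentage of peaks in that list with a lower signal (100 is strongest). Grey crosses mark no summit, and symbols right of the dashed line are among the top 8522 peaks. All 24 lid values lie right of the line, while beta, alpha and ATPase genes fall on both sides.

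The replicates ranked the members alike in part. Over the 29 broadly expressed genes with a summit in all 3 replicates, Spearman's rho of the signal was 0.869 for replicates 1 and 3. It was lower for replicate 2, at 0.717 with replicate 3 and 0.603 with replicate 1. These genes share the 3 libraries and the control, so the values describe the lists. Prosbeta2 and Prosbeta3 showed the widest gaps. Prosbeta2 ranked 21526, 7258 and 9437, and Prosbeta3 17867, 6118 and 12521 in replicates 1, 2 and 3. Replicate 2 thus placed both genes highest and replicate 1 lowest.

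Prosbeta2R2, a paralogue of Prosbeta2, had a weak summit in 4 lists, with a pooled signal of 73.4 at rank 21173, replicate signals of 21.6, 63.2 and 39.0, and ranks 25467, 15366 and 12741 in replicates 1, 2 and 3. Its nearest neighbour is CG1116, whose TSS lies 129 bp away. Rpt3R, a paralogue of Rpt3, had a summit in replicate 1 alone (rank 15349), and the TSS of Alg12 lies 19 bp from its own. The remaining 14 paralogues had no summit within 500 bp in any list. Their nearest IDR-thresholded summits lay between 6418 bp (Prosalpha1R) and 147703 bp (Prosbeta5R2) away. Expression was not measured in these samples.

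Summits lay upstream of the TSS in 23 of 25 bound members (92.0%), compared with 89.3% of all bound genes. Positions ranged from 325 bp upstream (Prosbeta2) to 220 bp downstream (Rpn9), with a median of 98 bp upstream. All 10 core summits were upstream. Within 100 bp of the TSS lay 12 of the 25 summits (48.0%), beside 33.5% of all bound genes. At some genes the replicates nearly coincided, and the 3 replicate summits spanned 3 bp at Prosbeta2, 10 bp at Rpn10 and 11 bp at Rpn11, Rpn13 and Prosbeta1. The median span was 48 bp, and the widest was 448 bp at Prosalpha6, where the strongest summits lay at -485, -152 and -37 bp in replicates 1, 2 and 3.

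**Figure D4:**
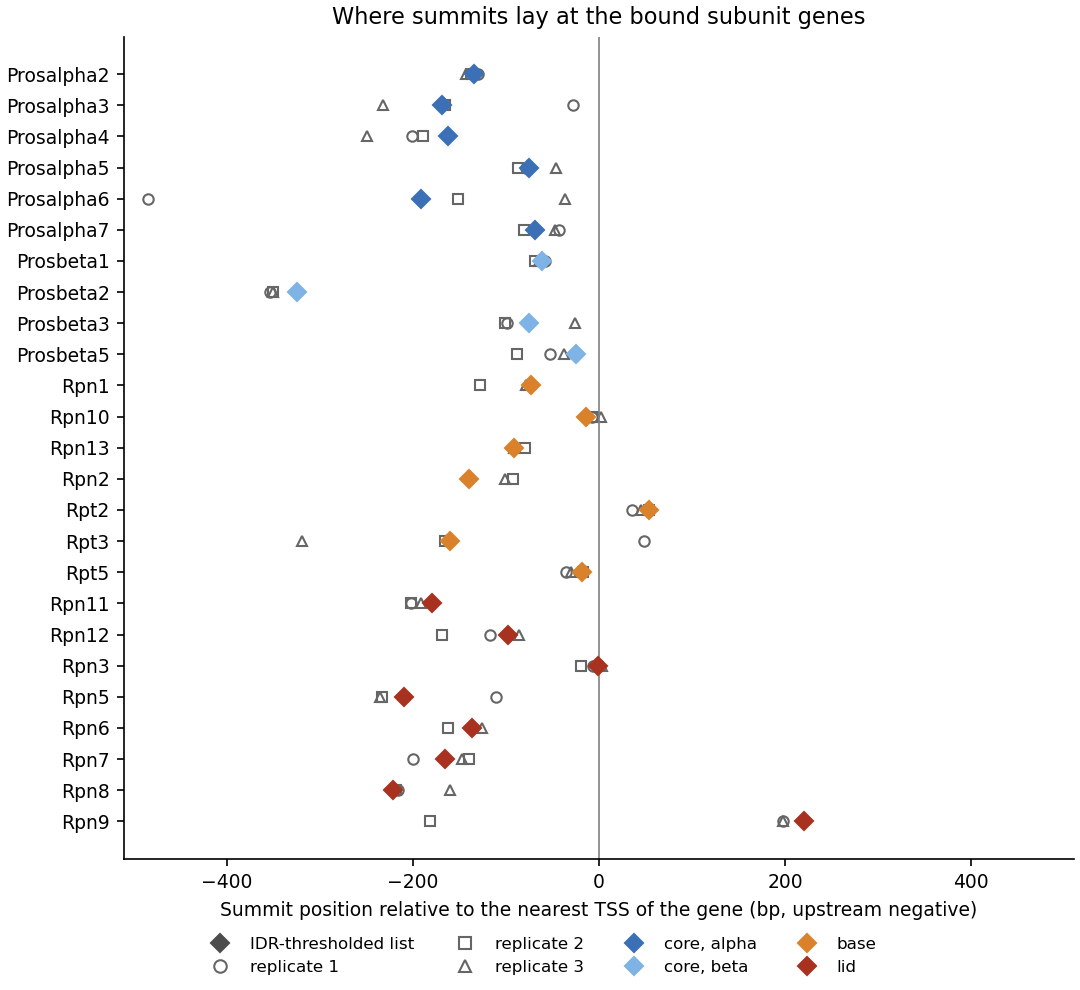
Diamonds show the summit of the IDR-thresholded list at each of the 25 bound genes, and open symbols the strongest summit in each replicate, in bp from the nearest TSS of the gene with upstream negative. Most diamonds lie between the TSS and 250 bp upstream, and Rpt2 and Rpn9 are the 2 downstream.

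Many proteasome genes start close to another gene's TSS. A TSS of another protein-coding gene lay within 500 bp of 21 of the 32 broadly expressed genes (65.6%), of 3 of the 16 paralogues (18.8%) and of 30.8% of all protein-coding genes. The 25 bound members had 25 distinct summits, of which 19 were also within 500 bp of another gene's TSS and 9 were nearer to that gene than to the member. Among them were Prosalpha4 (kat80 nearer), Prosalpha6 (Npc1a), Prosbeta1 (Rrp42), Prosbeta2 (mRpL39), Rpn2 (Slbp), Rpn5 (Hat1), Rpn6 (ave) and Rpn8 (Slik). When each summit counted for its nearest gene alone, 16 of the 32 genes were bound (50%), beside 26.0% of all genes, and the lid count fell from 8 to 4. Among genes with no other TSS within 500 bp, 7 of 11 broadly expressed members were bound (63.6%) and 0 of 13 paralogues, beside 22.2% of all such genes. Where another TSS did lie within 500 bp, 18 of 21 broadly expressed members (85.7%) and 0 of 3 paralogues were bound. The share of all such genes was 61.8%, well above the 22.2%. Among genes with 1 annotated TSS the counts were 16 of 22 (72.7%) and 0 of 14, beside 28.2%. Whether a peak in a shared promoter serves one gene or both was not tested.

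The bases under the summits were rich in A and T. Windows of 50 bp to either side of the 25 summits held 66.7% A+T ± 8.71 (SD over summits), against 49.4% in windows centred 500 bp away, a difference of 17.3 percentage points. The 3408 distinct strongest summits of all bound genes held 67.3% against 53.6%, a difference of 13.7 points, so the summits of members were no richer and their flanks were poorer in A+T. The difference was 17.1 for core and 17.4 for regulatory genes. The summit window was the richer one in 23 of 25 members, beside 2865 of the 3408. The exceptions were Rpn9 (49.5% against 56.4%) and Prosbeta5 (48.5% in both). Prosalpha4 (79.2%) and Prosbeta3 (78.2%) were the richest.

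The promoters of the broadly expressed genes often held the site of the factor DREF. Promoters were taken as 300 bp from 250 bp upstream of the first TSS, and 9 motifs were searched on both strands. At Rpn6 and Rpn8 the IDR-thresholded summit lies at a later TSS, outside the bases searched. The summits of Prosbeta2 (325 bp upstream), Rpn9 (220 bp downstream) and Rpt2 (54 bp downstream) also fall outside them. TATCGATA, the DRE, which DREF and BEAF-32 bind at promoters of housekeeping and replication genes, was present in 12 of 32 promoters (37.5%), in 0 of 16 paralogues and in 9.36% of all protein-coding genes. Among bound genes the share was 44.0% for members (11 of 25) and 16.7% for all bound genes. CGATA, which the DRE contains, was present in 27 of 32 (84.4%), in 8 of 16 paralogues (50%) and in 47.3% of all. Motif 1 (GGTCACACT), bound by M1BP, occurred in 5 of 32 (15.6%) beside 6.04%, namely in Prosalpha2, Prosalpha4, Prosbeta3, Rpn1 and Rpn7. None of these carried a DRE apart from Rpn7. The motif of CncC, the factor that raises proteasome gene expression under stress (TGACNNNGC), occurred in 5 of 32 (15.6%) beside 8.62%. These were Prosalpha2, Prosbeta3, Rpn1, Rpn7 and Rpt6, and all but Rpt6 also held Motif 1. Whether the matches to both motifs share bases was not tested. GAGAG was present in 3 of 32 (9.38%) beside 29.7%, and the E-box CAGCTG in 1 of 32 (3.13%) beside 17.6%. TATAAA was found in 40.6% beside 45.8%, runs of 7 A in 31.3% beside 26.7%, and Motif 7 (CATCNCTA) in 12.5% beside 6.41%.

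The 12 occurrences of the DRE in members began between -217 and 26 bp from the first TSS. At the 11 bound genes among them it was 24 to 318 bp from the summit, with a median of 122 bp. In the windows of 50 bp to either side of the summit 1 of 25 members, Rpt5, held it (4%), beside 5.02% of the strongest summits of all bound genes. The short site CGATA was in 10 of 25 such windows (40%) beside 24.1%, in 8 of 15 regulatory and 2 of 10 core genes. The E-box was in 3 of 25 (12%) beside 4.67%, and GAGAG in 2 of 25 (8%) beside 7.42%. The low promoter shares of these 2 motifs were thus not seen in the summit windows. These matches are descriptions of the letters present and not evidence of binding by any factor.

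**Figure D5:**
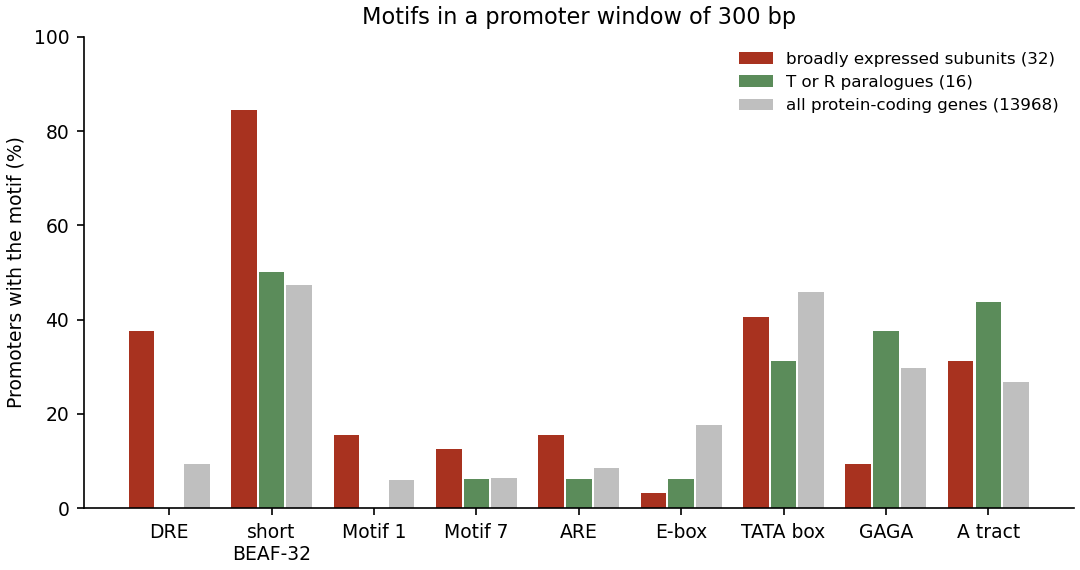
Bars give the percentage of promoters (300 bp, 250 upstream of the first TSS) holding each motif on either strand, for the 32 broadly expressed subunit genes, the 16 paralogues and all 13968 protein-coding genes. The DRE stands at 37.5% in the first group and 0% in the second, and GAGA is less frequent in the first group than in all genes.

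Genes that act with the proteasome were also bound in most cases. In gene lists chosen with earlier results of these data known, counts were as follows. Of 11 matched activators, assembly factors and associated proteins 8 were bound (72.7%), beside 34.4% of all genes. They included Pomp, a maturation factor of the core (signal 1218), Uch-L5, the deubiquitinase that docks on Rpn13 (486.2), Usp14, another proteasomal deubiquitinase (371.3), and Sem1, a small lid subunit outside the naming rule (264.9). Sem1, which the lid counts leave out, ranked 8088, 7351 and 9673 in replicates 1, 2 and 3. Usp14 had no summit within 500 bp in replicate 1 and ranked 3289 and 15969 in replicates 2 and 3. REG, an activator of the core, had no IDR-thresholded summit and ranked 9978, 9980 and 25176 in the replicates. In the top peaks of replicates 1, 2 and 3 the list had 6, 8 and 5 bound genes, beside 35.2%, 32.7% and 35.2% of all genes. Of 15 genes for ubiquitin, its activating enzyme and shuttle or segregase factors 13 were bound (10, 14 and 11 in the replicates), with Ubi-p63E, a polyubiquitin gene, at 693.4 and Uba1, the activating enzyme, at 527.9. RpL40, which encodes ubiquitin fused to a ribosomal protein, and the shuttle factor Rad23 were not. Both were among the top peaks of replicate 2, at ranks 6927 and 4146. TER94, bound in the IDR-thresholded list (414.6), had no summit within 500 bp in replicate 2. All 7 matched genes of 8 symbols listed for the CncC pathway were bound in the IDR-thresholded list, and 5, 7 and 6 of them in the top peaks of the replicates. They were Hrd3 (3359), Keap1, the inhibitor of CncC (857.5), cnc itself (806.8), sip3 (598.2), rngo (502.5), which stands in the ubiquitin list too, maf-S, its partner (395.2), and Pngl (293.9).

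The COP9 signalosome and the translation initiation factor eIF3 share the PCI and MPN folds of the lid. Of 9 COP9 signalosome genes 6 were bound (66.7%), led by CSN5, the deneddylase related to Rpn11 (924.5), and alien, another subunit (857.8). Of 16 eIF3 genes 8 were bound (50%), led by eIF3c (1374) and eIF3h (956.5), beside 34.4% of all genes. In the top peaks of replicates 1, 2 and 3, COP9 genes were bound in 6, 6 and 5 cases and eIF3 genes in 9, 8 and 9. The lid genes were at 8 of 8 each time, but the sets were not drawn alike. The lid set leaves out the paralogue Rpn12R and Sem1. The other lists keep genes such as CSN1a beside CSN1b and eIF3d2 beside eIF3d1, and CSN1a and eIF3d2 had no summit within 500 bp in any replicate. All protein-coding genes were at 35.2%, 32.7% and 35.2% there.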

How the data were processed

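Peaks of CG12391-eGFP ChIP-seq were used from 5 lists on genome build dm6, 1 for each of 3 replicates, 1 pooled and 1 IDR-thresholded. Per the labels, chromatin was sonicated to 200 to 800 bp. The file lists deposited with the samples record that replicate peaks came from 1 alignment each, compared with 1 common control, that pooled peaks came from all 3 alignments, and that IDR thresholding drew on these 4 lists. Names and versions of aligner and peak caller, and the IDR setting, are not stated in the sources used. The signal of each peak is the authors' deposited value, of unstated scale, so it was used within a list. Read depth per sample is unknown, so no counting intervals are given.

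Genes and TSSs came from Ensembl release 115 and sequence from the Release 6 assembly. All 48 members had identical gene coordinates in RefSeq, and 0 peaks ran past an arm. A summit is the peak start plus its offset. The gene call and tests were tested on simulated peaks. Alternatives were windows of 100, 250 and 1000 bp, the nearest TSS alone, stronger peaks, peaks covering a TSS, and replicates left out. For counts in the IDR-thresholded list, leaving out a replicate meant that peaks had to overlap a top peak of both others. Named genes are all members, with full values for the 6 strongest, those not bound and paralogues with a summit. The gene family, lists and motifs were chosen with earlier results of these data known, while membership follows from symbols. Shares over genes have no test, since genes are not replicates. Python 3.11.15, pandas 2.3.3 and numpy 2.4.6 were used. The neighbour of 1 member is not reported here.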

Additional observations from a re-analysis of the deposited data

How the results depend on the processing

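Over all members the share of core genes minus that of regulatory genes kept its sign under every window, the single nearest TSS, stronger or all peaks, and each replicate left out, and so did that of broadly expressed genes minus paralogues. Among broadly expressed genes alone, settings added after the data were seen, the first difference was reversed to 1.06 percentage points with a window of 100 bp and to 0.26 with all peaks, and ranged from -40.7 to -13.8 in the others, and the cause was not tested. The core and regulatory sets hold unequal numbers of paralogues. With each replicate left out in turn the 2 differences over all members and between the sets ranged from -35.0 to -28.9 and from 67.2 to 70.3 percentage points. The median signals of bound core and regulatory genes stayed within 1.5 times of their main values, but their place beside all bound genes moved. The regulatory median lay above that of all bound genes in the main setting (597.1 beside 561.5). It lay below with the stronger 50% of peaks (612.4 beside 866.7) and with peaks shared by all 3 replicates (606.8 beside 711.2). This also held when peaks had to overlap top peaks of both replicates of any pair. The core median lay below that of all bound genes except with a window of 100 bp (427.8 beside 403.9). With a window of 100 bp the bound counts fell to 5 core, 7 regulatory and 12 broadly expressed genes, while 13.1% of all genes were bound, and no paralogue was. Single nearest TSS gave 6 core and 16 broadly expressed genes. The lid count was 8 apart from 2 at 100 bp, 4 with the nearest TSS and 4 where a peak had to cover a TSS, where base counts were 5, 6 and 6 of 10. The stronger 50% of peaks gave 4 core and 16 broadly expressed genes beside 21.4% of all genes. Peaks shared by all 3 replicates gave 5 core genes (20%, beside 26.2% of all genes). For each replicate in turn, peaks also had to overlap a top peak of both others, in a list still made from all 3. This gave 5 to 6 core (20% to 24%, beside 27.3% to 28.9%), 13 to 14 regulatory, 18 to 20 broadly expressed genes and 0 paralogues. These core shares are over all 25 core genes, of which 11 are paralogues. Over the 14 broadly expressed core genes the same counts are shares above those of all genes. The bound broadly expressed genes numbered 16 of 22 with 1 TSS (72.7%) and 7 of 11 with no other TSS within 500 bp (63.6%). All genes were at 28.2% and 22.2% there. Both alternatives were added after the data were seen, and both count and share lay below the main 25 of 32 (78.1%). In the whole pooled list 1 paralogue had a summit. The depth of the libraries is unknown, so a missing summit does not show that a gene was not bound.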
